A study of Mus musculus with 2 samples.

Results

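The BCL2 family and the inhibitor of apoptosis proteins (IAPs) set the threshold at which a cell starts to die from within. Here 10 of their genes were followed by name among the 14774 genes with read counts: Mcl1, Bcl2 and Bcl2l1 (anti-apoptotic), Bak1, Bcl2l11, Bid and Bad (pro-apoptotic), and Xiap, Birc2 and Birc3 (IAPs). All 10 were present, and all 10 passed the filter on low counts, as did every one of the 14774 genes. They were taken by symbol, with no threshold on their values.

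The RNA was labelled as that of regulatory T cells, isolated as CD4+CD25+ cells from the spleens of C57BL/6 mice and kept for 5 days beside SVEC4-10 cells, an established endothelial line of the mouse that carries SV40. In the control co-culture the endothelial cells had been given a control oligonucleotide. In the knockdown co-culture they had been given small interfering RNA against Capns1, the gene of the small subunit shared by the conventional calpains, so the T cells themselves were not the target. The comparison asks what differed in the RNA of the co-cultured cells after that change in their partner. Each condition had 1 library, with deposited totals of 48100576 (control) and 47300284 (knockdown) reads. Which column belongs to which condition was read from the column prefixes, and every direction below rests on that reading. The labels do not say how the T cells were parted from the endothelial layer before total RNA was extracted, nor the age or number of the mice.

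With 1 library per condition there is no replicate error, and no p-value is given. Levels are reads scaled to a common library size (CPM). A fold is the knockdown over the control CPM, followed by its exact Clopper-Pearson 95% interval, which covers counting error only and treats reads as independent molecules. An interval that leaves out 1 therefore says that the libraries differ by more than counting error, not that the conditions differ. Capns1 stood at 243 and 236 CPM, a fold of 0.969 (0.944 to 0.994). Only the endothelial partner received the interfering RNA, and how much of the RNA came from it is not known. That level therefore does not test the labels.

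As background, mitochondrial apoptosis starts when the effectors BAX and BAK1 open the outer mitochondrial membrane and release cytochrome c. Anti-apoptotic members (MCL1, BCL2 and BCL-XL, the product of Bcl2l1) hold the effectors and their activators in check. BH3-only proteins such as BIM (Bcl2l11), BID and BAD oppose them by inserting a short helix, the BH3 segment, into a groove on their surface. Downstream, XIAP binds and blocks caspases directly, while cIAP1 (Birc2) and cIAP2 (Birc3) are ubiquitin ligases that mainly act in tumour necrosis factor signalling. In lymphocytes the balance of BIM against BCL2 and MCL1 is known to govern survival, regulatory T cells being especially dependent on MCL1.

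The BH3 core joins the 7 BCL2 family genes across opposite roles, so its coding sequence is shown for each. The stretches were read from GENCODE M21 transcripts, 5′ to 3′, in the longest open reading frame of each gene, and they lie in coding exons. Capitals mark a leucine codon and, after 3 codons in between, a glycine or serine codon followed by an aspartate codon. 
Mcl1: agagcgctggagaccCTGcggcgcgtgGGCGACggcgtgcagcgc
Bcl2: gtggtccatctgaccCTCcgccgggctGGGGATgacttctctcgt
Bcl2l1: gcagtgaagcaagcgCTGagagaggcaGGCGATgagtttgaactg
Bak1: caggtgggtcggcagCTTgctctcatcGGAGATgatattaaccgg
Bcl2l11: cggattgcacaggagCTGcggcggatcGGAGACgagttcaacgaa
Bid: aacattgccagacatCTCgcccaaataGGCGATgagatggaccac
Bad: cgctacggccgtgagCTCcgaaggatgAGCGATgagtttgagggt

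Each of the 7 open reading frames held this codon pattern 1 time. The leucine codon was number 194 in Mcl1, 94 in Bcl2, 90 in Bcl2l1, 76 in Bak1, 150 in Bcl2l11, 90 in Bid and 151 in Bad, counted from the start codon. The pattern alone is common, being present in 25.7% of 21810 protein-coding genes, among them Birc2 and Birc3, in which it is not a BH3 segment. Around the capitals the bases differ from gene to gene, and none of the 7 shared a 100-base window with another of them.

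Birc2 and Birc3 are paralogs, and their coding sequences were identical at 76.7% of 1774 aligned bases. Their longest shared run is shown because reads that lie inside it cannot be told apart.
Birc2 and Birc3: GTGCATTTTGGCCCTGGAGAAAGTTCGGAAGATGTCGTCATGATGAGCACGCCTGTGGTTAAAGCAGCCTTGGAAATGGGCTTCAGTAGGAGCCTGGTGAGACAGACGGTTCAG
The run is 114 bases long, all of it printed in capitals, and starts at codon 371 of Birc2 and codon 362 of Birc3. Of the 100-base windows of the longest Birc2 transcript 0.464% also occurred in Birc3, and 1.64% of those of Birc3 occurred in Gm7019. A larger overlap joins Bid to Bcl2l13, a neighbouring BCL2-related gene on the opposite strand, with 22.9% of the windows of the Bid transcript found in reverse in Bcl2l13. For Bak1 10.7% of windows lay opposite Ggnbp1, and for Bcl2 5.63% opposite D630008O14Rik. Whether reads were counted by strand is not stated, so in these stretches reads of both genes may have been pooled.

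Measured per length, Mcl1 was far above the other 9 genes in both libraries. Dividing by the longest annotated transcript, it stood at 141 CPM per kilobase in the control and 135 in the knockdown library. The effector Bak1 came next at 38.7 and 41.7 CPM per kilobase, and Birc3 after it at 26.2 and 23.6. Below them lay a close group made up of Xiap at 18.8 and 16.8, Bad at 18.6 and 20.7, and Bcl2l1 at 18.5 and 19.5 CPM per kilobase. In the control library the counting intervals of Xiap and Bad overlapped, as did those of Bad and Bcl2l1, so their order cannot be read there, and in the knockdown library Bad and Bcl2l1 overlapped while Xiap lay below both. Birc2 followed at 15.9 and 15.0 CPM per kilobase and Bid at 13.8 and 15.1, and in the knockdown library the intervals of Bid and Birc2 overlapped. Bcl2l11 at 9.95 and 8.77 and Bcl2 at 7.56 and 6.53 CPM per kilobase closed the order. With the median length of the protein-coding transcripts as divisor, Mcl1 (226 and 216), Bak1 (56.2 and 60.6) and Birc3 (44.0 and 39.7) again came first and Bcl2 (10.8 and 9.35) last. With that divisor Bcl2l11 stood at 20.1 and 17.7 CPM per kilobase in place of 9.95 and 8.77, so the middle of the order depends on which transcripts are made.

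**Figure D1:**
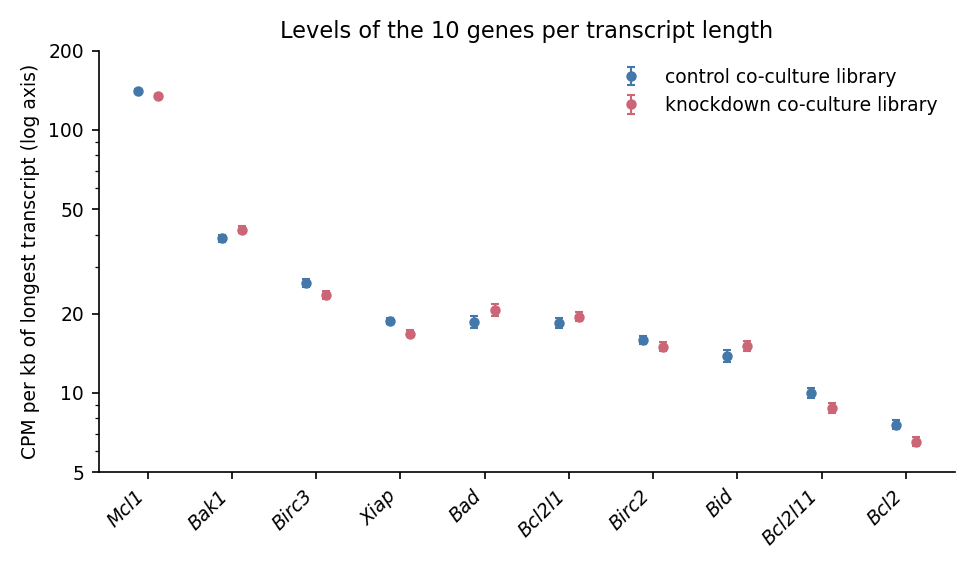
Level of each of the 10 genes in CPM per kilobase of its longest annotated transcript (vertical axis, logarithmic) in the control (blue) and knockdown (red) co-culture libraries, with exact Poisson 95% intervals; each point is 1 library. Mcl1 stands highest at 141 and 135 and Bcl2 lowest at 7.56 and 6.53, and the first 3 and last 2 genes hold their rank in both libraries.

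None of the 10 genes differed by 2-fold between the libraries, a size reached by 0.142% of all listed genes (0.00677% higher and 0.135% lower in the knockdown library). At a threshold of 1.5-fold none did either, against 1.51% of all genes. The intervals of 6 members lay below 1, where those of 22.7% of all genes did, and the intervals of 3 lay above 1, where those of 24.2% did. At the same fold, a gene with more reads has a narrower interval, which leaves out 1 more often. The members' median level in the control library was 53.7 CPM, against 29.8 CPM over all listed genes. The shares here and below are therefore not matched for depth. The members' median log2 fold was -0.07, against 0.00 over all genes. The SD on the log2 scale was 0.142 over the members and 0.20 over all genes. The latter takes in genes with fewer reads and so more counting error, so the 2 spreads are not at like depth.

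The anti-apoptotic genes did not go one way. Mcl1, whose protein is short-lived, was counted 23133 times in the control library and 21635 times in the knockdown library, or 483 and 463 CPM. The knockdown library was lower by a small margin, at a fold of 0.958 (0.941 to 0.976), and 70.2% of all genes lay farther from equality. Bcl2, the founding survival gene of the family, had 2605 and 2194 reads, or 54.4 and 46.9 CPM. Of the 10 members it was the farthest below equality, with a fold of 0.863 (0.815 to 0.914), at percentile 11.8 of all genes. Bcl2l1 had 2272 and 2344 reads, or 47.4 and 50.1 CPM. It was slightly higher in the knockdown library, at 1.06, and it was the only member whose interval included 1 (0.997 to 1.12).

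Ratios of reads between genes within a library do not depend on how the libraries are scaled, so pairs of the same role were also set against each other. The fold of Bcl2l1 was 1.22 times that of Bcl2 (1.13 to 1.33) and 1.10 times that of Mcl1 (1.04 to 1.17). Mcl1 in turn lay 1.11 times above Bcl2 (1.05 to 1.18). All 3 anti-apoptotic genes thus differed from each other in fold by more than counting error. Across the 12 pairs compared in the 3 roles, 6 intervals left out 1. The pairs share genes and so are not independent. No share over pairs of all listed genes was computed, so the count cannot be set against genes in general.

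Among the pro-apoptotic genes Bcl2l11 stood apart from the other 3. Bak1, the effector that is anchored in the outer mitochondrial membrane, had 4427 and 4658 reads, or 92.4 and 99.6 CPM, and a fold of 1.08 (1.03 to 1.12). Bid, which is cleaved by caspase 8 and links death receptors to mitochondria, had 1594 and 1705 reads, or 33.3 and 36.5 CPM, and a fold of 1.10 (1.02 to 1.17). Bad, a sensitizer that is switched off by survival kinases, had 1364 and 1482 reads, or 28.5 and 31.7 CPM, and a fold of 1.11 (1.03 to 1.20), the highest of the 10. All 3 were higher in the knockdown library, with intervals above 1, where 24.2% of those of all genes lay. Bcl2l11, which encodes the broad-acting killer BIM, had 2401 and 2064 reads, or 50.1 and 44.1 CPM, and was lower there at a fold of 0.881 (0.830 to 0.935).

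The gap between Bcl2l11 and the other 3 exceeded counting error in each pair. The fold of Bad was 1.26 times that of Bcl2l11 (1.15 to 1.39), that of Bid 1.24 times (1.14 to 1.36) and that of Bak1 1.22 times (1.14 to 1.32). Bak1, Bid and Bad could not be separated from each other, with ratios of 1.02 to 1.03 and intervals that ran from 0.918 at the lowest to 1.12 at the highest. For Bid, part of the reads may belong to the overlapping Bcl2l13, which had 4880 and 4701 reads and a fold of 0.987 (0.948 to 1.03).

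All 3 IAP genes were lower in the knockdown library, and their intervals lay below 1, where 22.7% of those of all genes lay. Xiap, the direct caspase blocker, had 6141 and 5380 reads, or 128 and 115 CPM, and a fold of 0.898 (0.865 to 0.931). Birc3, a target and regulator of NF-kB signalling, had 3646 and 3211 reads, or 76.1 and 68.7 CPM, and a fold of 0.902 (0.860 to 0.947). Birc2, the gene of cIAP1, had 2538 and 2335 reads, or 53.0 and 49.9 CPM. Its fold of 0.943 had an interval that only just left out 1 (0.891 to 0.998) and that included 1 when widened to 99%. The 3 folds did not differ from each other beyond counting error, Birc2 standing at 1.05 times Xiap (0.981 to 1.12) and at 1.04 times Birc3 (0.970 to 1.13), and Birc3 at 1.01 times Xiap (0.946 to 1.07). Summed per kilobase, the 3 IAP genes stood at 60.8 and 55.4, the 3 anti-apoptotic genes at 167 and 161, and the 4 pro-apoptotic genes at 81.0 and 86.3. The same sum over all listed genes with a length was also higher in the knockdown library, at 376872 and 392508. Mcl1 alone gave 141 and 135 of the anti-apoptotic sum and Bak1 38.7 and 41.7 of the pro-apoptotic sum. Bcl2l11, within the latter, was lower, at 9.95 and 8.77.

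The members' folds also followed the length of their transcripts. The 6 genes with a fold below 1 had longest transcripts of 2909 bases or more, and the 4 with a fold above 1 had 2568 bases or fewer. Bcl2 with 7191 bases, Xiap with 6834 and Bcl2l11 with 5036 had the 3 longest transcripts and the 3 lowest folds. Bad had the shortest, 1533 bases, and the highest fold. Across the 10 genes, Spearman's rho of log2 fold with length was -0.93 (the genes share their libraries and so are not independent), and -0.88 with the median length of the coding transcripts. Over the 13381 listed genes with a known length it was -0.32, and over the 51 other apoptosis genes described below it was -0.39. All listed genes include many with fewer reads and so more counting error, so these values are not at like depth.

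For some members, genes of like length lay to the same side of 1. In the decile of genes with the longest transcripts, which holds Bcl2 and Xiap, the median fold was 0.928 and 55.3% of intervals lay below 1. In the next to shortest decile, which holds Bad, the median fold was 1.05 and 40.5% of intervals lay above 1. For the decile of Bak1 and Bid these values were 1.04 and 37.3%. They were 1.02 and 32.6% for that of Bcl2l1, whose own interval included 1. Among genes of the length of Birc2 and Birc3, by contrast, the median fold was 1.02 and 16.3% of intervals lay below 1. In the decile of Mcl1 the median fold was 1.01 and 19.6% of intervals lay below 1, and in that of Bcl2l11 the values were 0.981 and 28.8%.

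**Figure D2:**
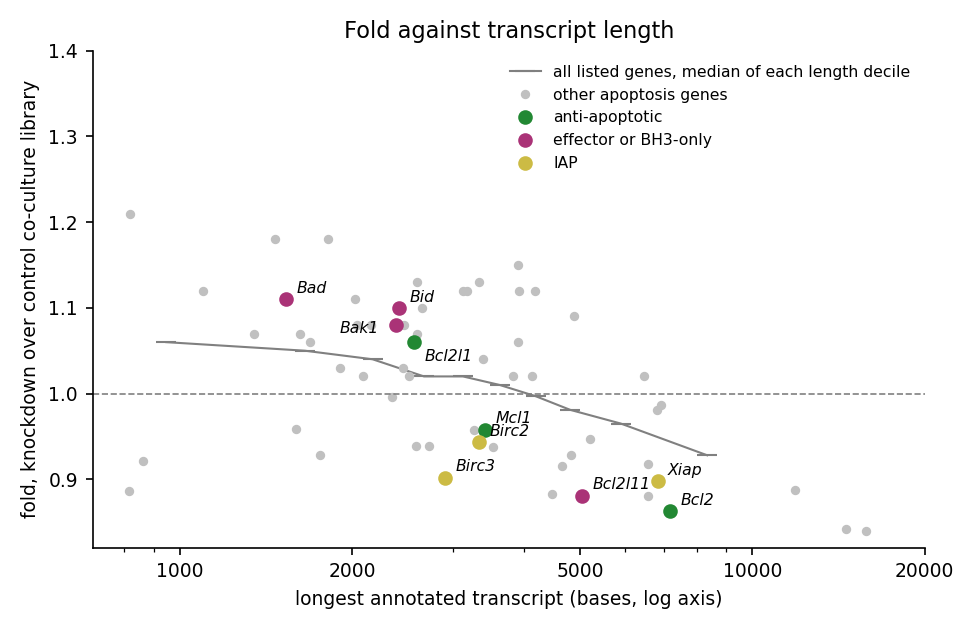
Fold of each gene (knockdown over control co-culture library) against the length of its longest annotated transcript in bases (logarithmic axis); coloured points are the 10 genes by role, grey points the other apoptosis genes, and the line joins the median folds of the length deciles of all listed genes with a length. The line runs from 1.06 in the shortest to 0.928 in the longest decile, and Birc3, at 0.902 and 2909 bases, is the member farthest below it. The Birc3 transcript of that length lacks part of the coding sequence.

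When the trend on length over all genes was removed, 6 members still had intervals below 1, where 21.6% of the genes with a length did, and 1 had an interval above 1, where 22.4% did. Birc3 then became the lowest member, at 0.882 (0.841 to 0.925) and percentile 12.7 of the genes with a length. That place rests on a Birc3 transcript that lacks part of the coding sequence. Bcl2l11 stood at 0.900 (0.848 to 0.955), Bcl2 at 0.911 (0.860 to 0.965), Birc2 at 0.928 (0.876 to 0.982), Xiap at 0.943 (0.909 to 0.978) and Mcl1 at 0.944 (0.927 to 0.962). Bid, at 1.06 (0.991 to 1.14), and Bad, at 1.05 (0.978 to 1.13), no longer had intervals above 1. Bak1 kept its interval by a narrow margin, at 1.04 (1.0017 to 1.09), and Bcl2l1 stood at 1.03 (0.969 to 1.09). With the median coding length in place of the longest transcript, Birc2 stood at 0.950 with an interval that included 1 (0.898 to 1.01). With that length Bcl2l11, at 0.877, and not Birc3, at 0.880, was the lowest member.

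The order within roles changed in part. The folds of Bad, Bid and Bak1 stayed 1.17, 1.18 and 1.16 times that of Bcl2l11 with intervals above 1, the lowest bound being 1.06. Bcl2l1 stayed above Bcl2, at 1.13 (1.04 to 1.22), and above Mcl1, at 1.09 (1.02 to 1.16). Mcl1 and Bcl2 were no longer apart, at 1.04 (0.976 to 1.10), while Birc3 came to lie below Xiap, at 0.935 (0.880 to 0.993). What produced the trend on length was not tested.

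**Figure D3:**
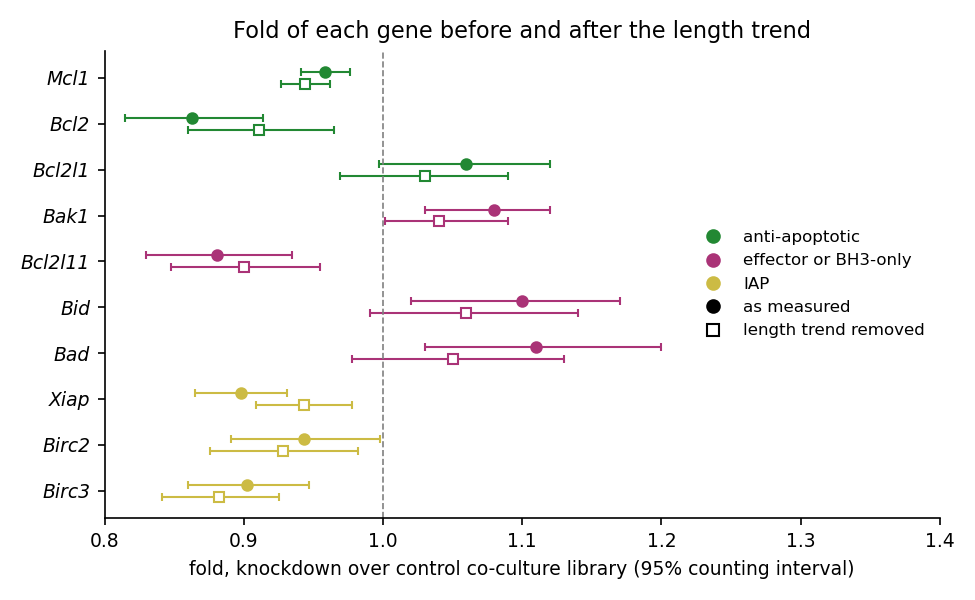
Fold of each of the 10 genes (horizontal axis, knockdown over control co-culture library) with its exact 95% counting interval, as measured (filled circles) and after removal of the trend on transcript length (open squares), coloured by role; the dashed line marks equality. The 3 IAP genes, Mcl1, Bcl2 and Bcl2l11 lie below 1 both ways, and the intervals of Bid and Bad reach 1 after removal.

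A list of 58 other genes of the pathway had 51 members with counts, and none of these was 2-fold apart. The intervals of 18 lay above 1, those of 11 below, and 22 included 1, with a median log2 fold of 0.04. Over all listed genes 24.2% of intervals lay above 1 and 22.7% below. The list's share below 1 was near that of all genes, and its share above 1 was higher. Its median level in the control library was 38.2 CPM, against 29.8 CPM over all listed genes, so these shares are not matched for depth. Folds ran from 0.840 to 1.21. With the length trend removed, 13 intervals lay above 1 and 10 below, against 22.4% and 21.6% of the genes with a length.

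Of the other survival factors and effectors, Bax, the second effector beside Bak1, stood at 90.7 and 102 CPM and a fold of 1.12 (1.08 to 1.17). Bcl2l2, which encodes the survival factor BCL-W, stood at 1.02 (0.982 to 1.06). The Bcl2a1 genes are near-identical copies whose reads cannot be assigned with certainty. Bcl2a1b stood at 0.886 (0.823 to 0.955), Bcl2a1d at 0.921 (0.821 to 1.03) and Bcl2a1a at 1.21 (1.01 to 1.46), and all 3 were named after their values were seen. With the length trend removed, Bcl2a1a stood at 1.14 (0.952 to 1.37), Bcl2a1b at 0.835 (0.775 to 0.899) and Bcl2a1d at 0.867 (0.773 to 0.971).

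Among the other BH3-only genes Bbc3, the p53 target PUMA, stood at 26.0 and 30.5 CPM and a fold of 1.18 (1.09 to 1.27). Bmf, a BH3-only gene linked to the cytoskeleton, lay below 1, as did Bcl2l11, at 0.915 (0.847 to 0.989), but with the length trend removed its interval included 1, at 0.928 (0.859 to 1.0023). In the separate list of other BCL2-related genes, Bnip2 stood at 1.08 (1.04 to 1.11) and Bnip3l, a receptor for the removal of mitochondria, at 0.958 (0.925 to 0.992).

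Of the 5 other IAP genes with counts, 1 interval lay above 1, 1 below, and 3 included 1. Over all genes 24.2% lay above and 22.7% below, so these counts were near those shares. Birc6, the giant ubiquitin ligase BRUCE, stood at 366 and 308 CPM and a fold of 0.840 (0.821 to 0.859), the lowest of the list, on a transcript of 15768 bases, and at 0.952 (0.932 to 0.974) with the length trend removed. Birc5, which encodes survivin, a protein of dividing cells, stood at 58.9 and 66.3 CPM and 1.13 (1.07 to 1.19). Of the IAP antagonists, Xaf1 stood at 1.07 (1.02 to 1.11), or 1.04 (0.993 to 1.08) with the length trend removed, and the protease gene Htra2 at 1.02 (0.962 to 1.08).

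In the apoptosome and caspase group 3 intervals of 9 lay above 1 and 3 below, where 24.2% and 22.7% of those of all genes did. Cycs, the gene of cytochrome c, stood at 131 and 146 CPM and 1.12 (1.08 to 1.15), and Casp8, the initiator of death receptor signalling, at 0.939 (0.891 to 0.989). Apaf1, the scaffold of the apoptosome, stood at 0.880 (0.833 to 0.929) and was named after its value was seen. Among death receptors and adaptors, Tnfrsf1a, the main receptor of tumour necrosis factor, stood at 1.08 (1.04 to 1.12) and Cflar, the inhibitor of caspase 8, at 0.918 (0.880 to 0.958). With the length trend removed both intervals included 1, Tnfrsf1a standing at 1.04 (0.999 to 1.08) and Cflar at 0.961 (0.921 to 1.0034). Of the genes that act on the members' proteins, Huwe1, a ubiquitin ligase of MCL1, stood at 0.842 (0.828 to 0.857) and Usp9x, its deubiquitinase, at 0.888 (0.866 to 0.910). Both have transcripts above 10 kilobases, of 14579 and 11887 bases, and with the length trend removed they stood at 0.949 (0.933 to 0.965) and 0.982 (0.958 to 1.01).

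**Figure D4:**
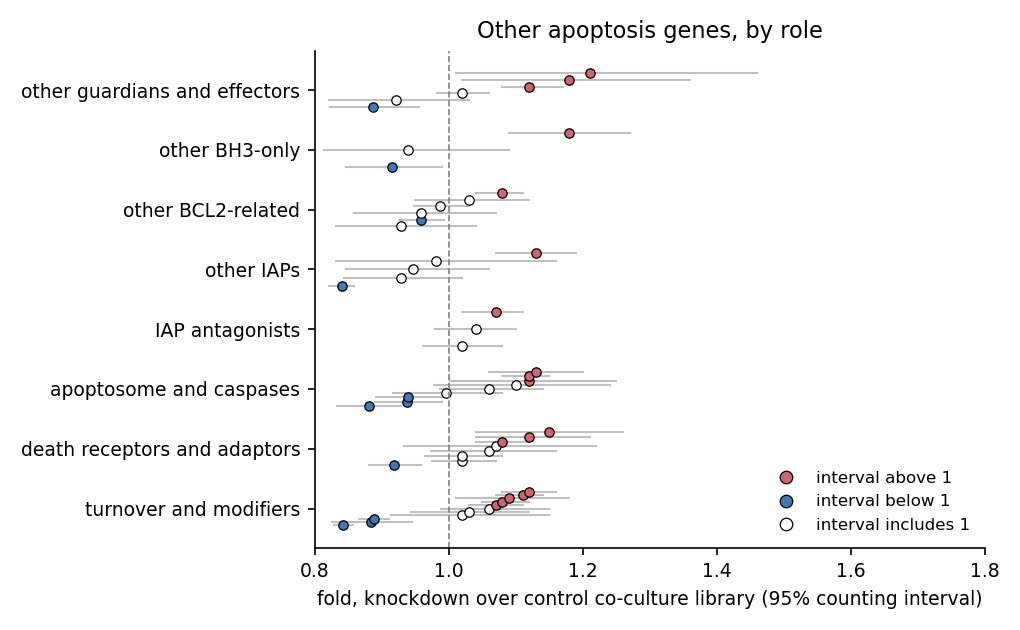
Folds (horizontal axis, knockdown over control co-culture library) of the 51 other apoptosis genes with counts, grouped by role, with exact 95% counting intervals; red points have intervals above 1, blue below 1, and open points include 1. Folds run from 0.840 to 1.21, and 4 of the 8 roles hold more intervals above 1 than below.

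The cells in the libraries bear on all of these values, since in bulk RNA fewer cells of a type and less RNA per cell cannot be told apart. Foxp3 and Cd4, which define the labelled cells, were low, at 5.22 and 4.73 CPM and at 8.22 and 6.25 CPM, and Cd3e stood at 22.3 and 21.2 CPM. For the marker counts that follow, 22.7% of the intervals of all genes lay below 1 and 24.2% above. The 10 B cell markers summed to 2967 and 2644 CPM, and 9 of their intervals lay below 1 and none above. The 11 macrophage and monocyte markers with counts summed to 1299 and 926 CPM, with all 11 intervals below 1 and a median log2 fold of -0.86. Of these 11 markers 5 were at least 2-fold lower, a size reached by 0.135% of all genes. The 7 neutrophil markers with counts summed to 264 and 338 CPM, with 4 intervals above 1 and 3 below. The 10 T cell markers summed to 219 CPM in both libraries, with 2 intervals above 1, 3 below and 5 that included 1. The 8 markers of matrix-producing cells summed to 2749 and 2633 CPM, the 4 measured endothelial markers to 105 and 102, the 6 of erythroid cells and platelets to 1668 and 1494, and the 10 Treg markers to 54.0 and 50.6. In these 4 lists in turn, 3, 1, 4 and 1 intervals lay below 1, and 1, 1, 0 and 0 above. Of the 10 endothelial markers looked for, Cdh5, Tek, Tie1, Egfl7, Emcn and Esam had no counts. Pecam1 gave 83.9 and 79.7 CPM of the endothelial sum, and Kdr, Eng and Vwf gave the rest. No marker with counts was at 0 in either library, and the table lists no gene with fewer than 100 control reads. Mcl1, Bcl2, Bcl2l11 and the IAP genes are expressed by B cells and myeloid cells as well as T cells. The markers of matrix-producing cells also summed far above those of T cells. How much of the RNA came from the SVEC4-10 cells, which received the interfering RNA, is not known. The part of any of these cells in the members' folds was not tested.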

How the data were processed

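RNA sequencing libraries of 2 co-cultures were used, 1 per group, grouped by the treatment label. The authors deposited 1 table of counts, given as mapped reads for each gene per the file headers. They also deposited counts scaled to equal totals and by a TMM factor (unit signal) and an unnamed column of log2 ratios, none of which was used. Per the submitters' processing notes, Trimmomatic 0.39, BWA 0.7.17 and the builds mm8 and GRCm39 were named without roles, so no genome coordinates are printed. BWA does not splice reads, so if a genome was the target, reads across exon junctions can be lost. The counting step and its strand setting are not given in the sources used here. The total row was left out; 0.782% and 0.764% of reads belong to no listed gene. Every listed gene has at least 100 control reads, so genes higher from a lower start are not among those analysed. At this depth 3 reads correspond to 0.0626 and 0.0642 CPM.

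Libraries were scaled with edgeR 4.0.16 (TMM factors 1.004 and 0.996) in R 4.3.3; other steps used Python 3.11.15, scipy 1.17.1, statsmodels 0.14.6 and Biopython 1.88. Genes needed 1 CPM in a library and 10 reads in both together, which every listed gene had. A prior count of 0.5 was used for log2 folds. With no residual degrees of freedom, no edgeR test was fitted. Ratios of folds carry exact conditional 95% intervals. Lengths came from GENCODE M21, matched by NCBI Gene ID or symbol for 90.6% of genes, and their trend was a lowess fit with a fraction of 0.3. On simulated data for this comparison, with 14774 genes, 100% of genes changed 3-fold and 0% of those changed 1.5-fold were called at 2-fold, 95.4% of intervals held the true ratio, and an added length trend was removed. The simulation holds counting error only.

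The members and lists were chosen with earlier results of these data known. Beyond the members, the rule for named genes took, from each role of the pathway list, genes past 1.25-fold or 0.8-fold with an interval excluding 1 (there were 0) and the 2 with the most reads, plus Capns1 and the defining markers Foxp3, Cd4, Cd3e, Cd79a, Lyz2, Msr1 and Pecam1. Of these markers, Cd79a stood at 559 and 517 CPM, Lyz2 at 875 and 643, Msr1 at 85.5 and 41.8 and Pecam1 at 83.9 and 79.7. Genes of the lists without counts in the table, such as Bik, Hrk and Bcl2l10, were not analysed here.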

Additional observations from a re-analysis of the deposited data

How the results depend on the processing

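All 30 member folds under DESeq2 1.42.0 size factors, total counts and upper-quartile scaling stayed within their 95% intervals, and these scalings moved the median log2 fold of all genes by -0.001, -0.011 and -0.014. Under them 3 members had intervals above 1 and 6 below, and in the wider list 16 to 18 intervals lay above 1 and 11 below. Of the 139 alternatives run, 113 stayed within their limits, and 20 of the other 26 were levels per kilobase under the median coding length. No fold or ratio whose interval left out 1 came to leave it out on the other side. Ratios whose intervals had included 1 did cross it when the trend on length was removed. Birc3 over Xiap went from 1.01 to 0.935, Birc2 over Xiap from 1.05 to 0.983 and Bad over Bid from 1.02 to 0.992. Removing the trend on transcript length moved the fold of Xiap from 0.898 to 0.943 and the number of members with an interval above 1 from 3 to 1. It moved the ratios of folds of Mcl1 over Bcl2 to 1.04, of Bcl2l1 over Bcl2 to 1.13 and of Birc3 over Xiap to 0.935. With the median coding length in its place, chosen after the data were seen, Xiap stood at 0.952, and the interval of Birc2, at 0.950 (0.898 to 1.01), came to include 1. With 99% intervals 5 members lay below 1 and 3 above. A minimum of 400 reads could not remove a member, since Bad, with the fewest, had 1364 and 1482 reads. That setting, counted among the 113, therefore does not test the members' counts. The cause of the length trend was not tested. No paired analysis was possible because each group had 1 library, and no library could be left out. Without replicate libraries the spread between cultures is unknown, and folds this close to 1 cannot be set against it.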
